A study of Homo sapiens with 12 samples.

Results

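CXCL9, CXCL10, CXCL11 and CXCR3 form a small ligand and receptor system, and their transcripts were followed through 12 libraries of tumor-associated macrophages (TAMs). The 4 genes were taken by name from a deposited table of 58735 genes, and were chosen by measured values: CXCL10 and CXCL11 were already known to be lower in the OE-MMP28 group than in control in these same libraries. The TAMs came from THP-1, a human monocytic leukaemia line, treated with the phorbol ester PMA to give macrophage-like cells, and were cocultured with AsPC-1 pancreatic cancer cells. In the control group the AsPC-1 cells carried an empty lentiviral vector, and in the other groups they overexpressed MMP28, a secreted matrix metalloproteinase. One OE-MMP28 group received nothing else that the labels name, 1 received a neutralizing anti-IL-8 antibody and 1 a neutralizing anti-VEGFA antibody, with 3 libraries in each group. No group is named for a control antibody, and both partners of the coculture are established lines rather than primary cells. Nothing in the labels says that the 3 libraries of a group came from separate cultures, so the p-values below measure only the spread between these libraries.

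CXCL9, CXCL10 and CXCL11 are CXC chemokines that lack the ELR motif and share 1 receptor, CXCR3, which is found mainly on activated T cells and NK cells. Macrophages make them when interferons act through STAT2 and the interferon regulatory factors, and NF-kB adds to the induction. In tumors they are known for drawing T cells and NK cells towards the cells that secrete them. CXCL11 has a further receptor, ACKR3, which scavenges it.

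The 3 ligand genes lie side by side on the minus strand of chromosome 4. In the coordinates of the table, which for 58724 of its 58735 genes are those of GENCODE 29 on GRCh38, CXCL9 (ENSG00000138755) runs from 76001275 to 76007488, CXCL10 (ENSG00000169245) from 76021117 to 76023497 and CXCL11 (ENSG00000169248) from 76033682 to 76041415. CXCR3 (ENSG00000186810) lies on the minus strand of chromosome X from 71615916 to 71618517. CXCL10 and CXCL11 sit inside the span of ART3, a gene of the plus strand, but none of the 4 genes shares an exon base with another gene. ART3 itself had at most 2 counts in a library.

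The 250 bases before each ligand's RefSeq start (GRCh38.p14, read 5′ to 3′ on the minus strand) are shown because these stretches hold letters of the elements through which interferon and NF-kB are known to act. Capitals mark matches to the core of the interferon-stimulated response element (ISRE, GAAA, any 2 bases, GAAA), the gamma-activated site (GAS, TTC, any 3 bases, GAA) and an NF-kB core (GGGA, any 2 bases, TTCC), searched on both strands. The matches do not overlap each other. The stretches are chr4:76007510-76007759 for CXCL9, chr4:76023498-76023747 for CXCL10 and chr4:76036071-76036320 for CXCL11.
CXCL9: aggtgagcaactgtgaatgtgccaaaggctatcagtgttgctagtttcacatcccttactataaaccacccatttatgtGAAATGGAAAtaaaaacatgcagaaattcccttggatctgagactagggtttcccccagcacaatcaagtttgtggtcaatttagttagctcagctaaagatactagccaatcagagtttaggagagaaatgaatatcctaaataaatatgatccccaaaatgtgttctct
CXCL10: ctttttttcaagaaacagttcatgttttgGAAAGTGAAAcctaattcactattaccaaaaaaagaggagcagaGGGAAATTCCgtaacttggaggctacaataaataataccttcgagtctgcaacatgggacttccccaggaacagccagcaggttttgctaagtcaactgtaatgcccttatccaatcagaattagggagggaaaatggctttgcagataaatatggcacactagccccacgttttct
CXCL11: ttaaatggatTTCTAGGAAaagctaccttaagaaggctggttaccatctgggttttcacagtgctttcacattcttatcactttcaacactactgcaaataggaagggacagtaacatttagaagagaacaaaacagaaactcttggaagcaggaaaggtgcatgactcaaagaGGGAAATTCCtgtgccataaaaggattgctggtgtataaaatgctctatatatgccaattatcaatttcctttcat

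The CXCL9 stretch held an ISRE core that began at position -171, counting the last base before the start as -1. The CXCL10 stretch held an ISRE core at -221 and an NF-kB core at -177. The CXCL11 stretch held a GAS at -240 and an NF-kB core at -76, and a further GAS match began at base 19 after the start, outside the letters shown. The NF-kB matches of CXCL10 and CXCL11 had the same letters, GGGAAATTCC. Over 35116 RefSeq promoter windows of 300 bases, 250 before to 50 after a start, 3.57% held the ISRE core, 7.66% the GAS and 1.61% the NF-kB core. No match to these letters lay in the CXCR3 window. The RefSeq start of CXCL11 lies within the longer gene span of the table, and a match describes letters, not binding.

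Library totals ranged from 15852346 to 18701195 counts, so that 3 counts equal 0.160 to 0.189 CPM (counts scaled to equal library totals). Mitochondrial genes took 6.92% to 17.8% of the counts, and MMP28 had 0 counts in each TAM library. Of 12 macrophage markers 11 passed the filter on low counts, with a summed level of 6164 to 6996 CPM in control, 5728 to 9236 in OE-MMP28, 8414 to 10778 with anti-IL-8 and 6961 to 8762 with anti-VEGFA. The exception was CD68, with at most 5 counts in a library and 85.79% of its exon bases shared with other genes. Of 8 epithelial markers 1 passed the filter, EPCAM had 0 counts throughout, and their summed level was 1.10 to 1.60 CPM in control, 0.604 to 1.12 in OE-MMP28, 1.10 to 1.84 with anti-IL-8 and 1.36 to 1.78 with anti-VEGFA. The highest mitochondrial share was that of anti-VEGFA replicate 2, which also lay farthest from the other libraries of its group, with a mean chi-square per gene of 130 and 71.8 against 7.92 to 66.6 for the pairs of the other groups. Without it, the number of genes called between anti-IL-8 and OE-MMP28 went from 0 to 1166, and between anti-VEGFA and OE-MMP28 from 55 to 84. Without OE-MMP28 replicate 3 these numbers went from 0 to 4203 and from 55 to 1498. Comparisons of CXCL10 and CXCL11 with OE-MMP28 TAMs are therefore also given without OE-MMP28 replicate 3, and those with anti-VEGFA without its replicate 2.

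CXCL10 was the most abundant of the ligand transcripts in control TAMs and had at most 26 counts in a library of the other groups. In replicate order, 818, 1104 and 734 reads were counted in the control libraries. OE-MMP28 TAMs gave 25, 4 and 6 reads. The anti-IL-8 libraries held 14, 16 and 10 reads, and the anti-VEGFA libraries 26, 21 and 18. Every control library lay far above every other library, and in OE-MMP28 replicate 1 lay above the other two. Scaled by TMM, the level was 51.8 ± 10.6 CPM (SD, n = 3) in control and 0.660 ± 0.621 CPM in OE-MMP28. It was 0.832 ± 0.161 CPM with anti-IL-8 and 1.28 ± 0.296 CPM with anti-VEGFA. By FPKM, the deposited level per length, CXCL10 ranked 993rd, 701st and 1038th of all genes in the control libraries, and 10868th, 17135th and 15226th in OE-MMP28.

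CXCL11 had the same order of control against the rest, at a lower level. Control libraries held 130, 261 and 177 reads, and OE-MMP28 libraries 21, 10 and 4. The anti-IL-8 libraries held 1, 3 and 6 reads, and the anti-VEGFA libraries 7, 10 and 3. No library of the other groups reached a control library, whereas the groups with MMP28 overexpression overlapped each other. The level was 11.1 ± 3.73 CPM (SD, n = 3) in control and 0.662 ± 0.457 CPM in OE-MMP28. It was 0.210 ± 0.165 CPM with anti-IL-8 and 0.403 ± 0.237 CPM with anti-VEGFA.

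CXCL9 was scarce even in control TAMs. The control libraries held 6, 11 and 20 of its reads, and OE-MMP28 libraries held 1, 3 and 0. The anti-IL-8 libraries held 0, 2 and 0, and the 3 anti-VEGFA libraries none, which allows up to 0.160 to 0.189 CPM in each. All control libraries were above 3 counts, and no other library was. In FPKM the control level of CXCL9, 0.260 ± 0.150 (SD, n = 3), was below that of CXCL11, 5.73 ± 1.94, which was below that of CXCL10, 43.5 ± 9.03, and the libraries of these genes did not overlap.

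CXCR3, the receptor, was at a few counts per library throughout. Control libraries held 7, 10 and 5 reads, against 8, 3 and 2 in OE-MMP28. The anti-IL-8 libraries held 1, 4 and 2 reads, and the anti-VEGFA libraries 4, 1 and 5. Control and OE-MMP28 overlapped, since OE-MMP28 replicate 1 exceeded 2 of the control libraries. Mean levels were 0.428 ± 0.141 CPM in control, 0.246 ± 0.169 in OE-MMP28, 0.144 ± 0.0872 with anti-IL-8 and 0.189 ± 0.110 under anti-VEGFA (SD, n = 3). Markers of T and NK cells, which carry this receptor, are given with the gene lists further on.

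**Figure D1:**
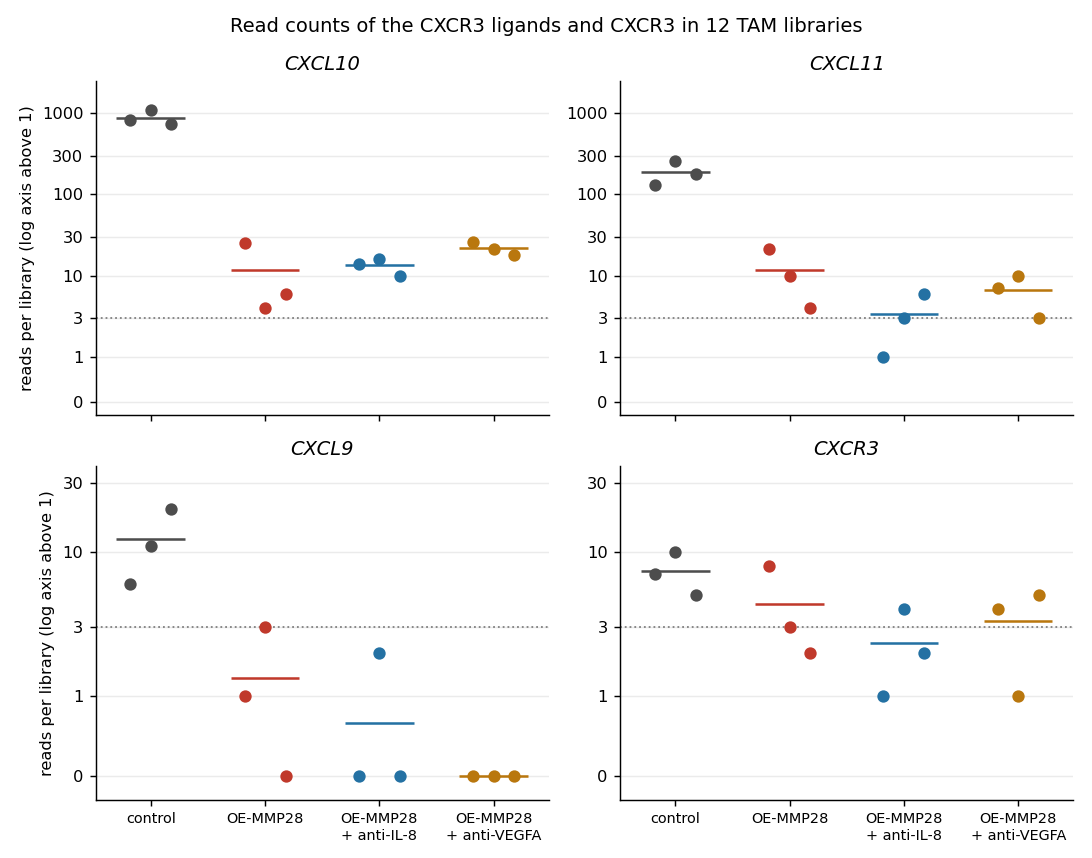
Reads per library (log axis above 1) of CXCL10, CXCL11, CXCL9 and CXCR3 in the 4 groups; each point is 1 library, horizontal lines are group means and the dotted line marks 3 counts. The 3 control libraries of each ligand lie above all others, while CXCR3 overlaps between control and OE-MMP28.

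Of the 4 genes, only CXCL10 and CXCL11 passed edgeR's filter on low counts, with at least 10 counts in 10 and 6 libraries. Outside control, CXCL11 reached 10 counts only in OE-MMP28 replicates 1 and 2 and anti-VEGFA replicate 2, so the control libraries helped it pass. CXCL9 and CXCR3 reached 10 counts in 2 and 1 libraries, and are described by their counts and levels. The comparison of OE-MMP28 with control was used to choose the genes, and the antibody groups share the same control libraries, so the differences from control are descriptions without a test. In OE-MMP28, CXCL10 was lower than in control by a ratio of means of 78.4, with a log2 fold change of -6.24 (SE 0.34). It was the lowest log2 fold change of 16046 genes tested, and CXCL11 was the 12th lowest at -4.02 (SE 0.42), a ratio of means of 16.7. Without OE-MMP28 replicate 1, the library with the highest counts of both genes in its group, the values were -7.39 and -4.69, and leaving out OE-MMP28 replicate 3 instead gave -5.97 and -3.65. With anti-IL-8 the log2 fold changes from control were -5.94 (SE 0.33) for CXCL10 and -5.68 (SE 0.50) for CXCL11. With anti-VEGFA they were -5.34 (SE 0.31) and -4.79 (SE 0.45).

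The counts of CXCL9 allowed a ratio only with its counting interval. Control exceeded OE-MMP28 by a ratio of 9.28 (95% interval 3.33 to 35.8), from 37 counts against 4. It exceeded anti-IL-8 by 17.3 (4.46 to 148), from 37 counts against 2. With anti-VEGFA, where no read was counted, control was at 12.4 times the level that 3 counts over the group would give. This value takes no account of the counting error of the 37 control counts and is not an interval limit. The exact binomial intervals given for OE-MMP28 and anti-IL-8 cover counting error only.

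In OE-MMP28, 3 of the 4 genes had every library below every control library, against 11.6% of all genes tested. The 4 genes were below control in this way with anti-IL-8, where 24.4% of genes were, and with anti-VEGFA, where 17.4% were. This is counted on scaled CPM: in reads, CXCR3 in anti-VEGFA replicate 3 equalled control replicate 3, with 5 each. Since the genes were chosen for this fall, nothing is read from these shares. A lower count in bulk RNA can come from fewer cells that make a transcript or from less RNA in each cell, and these cannot be told apart here.

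The question the antibody groups allow is whether the chemokines differed from OE-MMP28 TAMs when IL-8 or VEGFA was neutralized. The answers share the OE-MMP28 libraries with the contrast that chose the genes. Neither CXCL10 nor CXCL11 passed the adjusted threshold in these comparisons. For CXCL10 with anti-IL-8 the log2 fold change was 0.30 (SE 0.47, 95% interval -0.70 to 1.30, adjusted p = 0.704, quasi-likelihood test of edgeR, Benjamini-Hochberg adjustment). With anti-VEGFA it was 0.90 (SE 0.43, interval -0.014 to 1.81, unadjusted p = 0.0532, adjusted p = 0.273 by the same edgeR test). The anti-VEGFA libraries, at 18 to 26 counts, overlapped OE-MMP28 through its replicate 1, with 25 counts. Without that library the log2 fold change was 2.04 with anti-VEGFA (edgeR adjusted p = 0.0860) and 1.45 with anti-IL-8 (adjusted p = 0.133). Without OE-MMP28 replicate 3 the values were 0.64 with anti-VEGFA and 0.06 with anti-IL-8, neither called, and without anti-VEGFA replicate 2 the anti-VEGFA value was 0.87, also not called. The mean of 1.28 CPM with anti-VEGFA stood against 51.8 CPM in control.

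For CXCL11 the differences were negative. Its log2 fold change from OE-MMP28 was -1.66 with anti-IL-8 (SE 0.67, 95% interval -3.06 to -0.25, unadjusted p = 0.0236, adjusted p = 0.116, edgeR's quasi-likelihood test). Without OE-MMP28 replicate 3 it was -2.0 and passed the threshold (edgeR adjusted p = 0.0287), and without OE-MMP28 replicate 1 it was -0.98 (adjusted p = 0.421). With anti-VEGFA it was -0.77 (SE 0.58, interval -2.0 to 0.45, adjusted p = 0.487, same edgeR test). Leaving out OE-MMP28 replicate 3 gave -1.13, and leaving out anti-VEGFA replicate 2 gave -1.23, with no call in either case. At this threshold 0% of all genes were called between anti-IL-8 and OE-MMP28, where 29.3% had an unadjusted p under 0.05 and DESeq2 called 2259 genes. Between anti-VEGFA and OE-MMP28, 0.343% were called and 18.8% had an unadjusted p under 0.05. The CXCL11 values rest on 4 to 21 counts per library in OE-MMP28, 1 to 6 with anti-IL-8 and 3 to 10 with anti-VEGFA. As the control libraries helped this gene through the filter, no difference is read from its tests.

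Set against each other, the antibody groups gave CXCL10 at 18 to 26 counts with anti-VEGFA and at 10 to 16 with anti-IL-8, without overlap, as 11.3% of all genes were higher without overlap in this comparison. Scaled by library totals alone the groups overlapped, at 0.963 CPM in anti-VEGFA replicate 3 and 0.964 CPM in anti-IL-8 replicate 2. The log2 fold change was 0.60 (SE 0.42, 95% interval -0.29 to 1.49, edgeR adjusted p = 0.513), and that of CXCL11 was 0.88 (SE 0.74, interval -0.67 to 2.44, adjusted p = 0.582), where 0.199% of genes were called. For CXCR3 an exact two-sided permutation test over libraries gave p = 0.6 for anti-IL-8 against OE-MMP28, p = 0.8 for anti-VEGFA against OE-MMP28 and p = 0.7 between the antibodies. For CXCL9 the exact permutation p-values were 0.7, 0.4 and 1. Exact tests of 3 libraries against 3 cannot go below p = 0.1, so no difference in CXCL9 or CXCR3 could have been called.

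**Figure D2:**
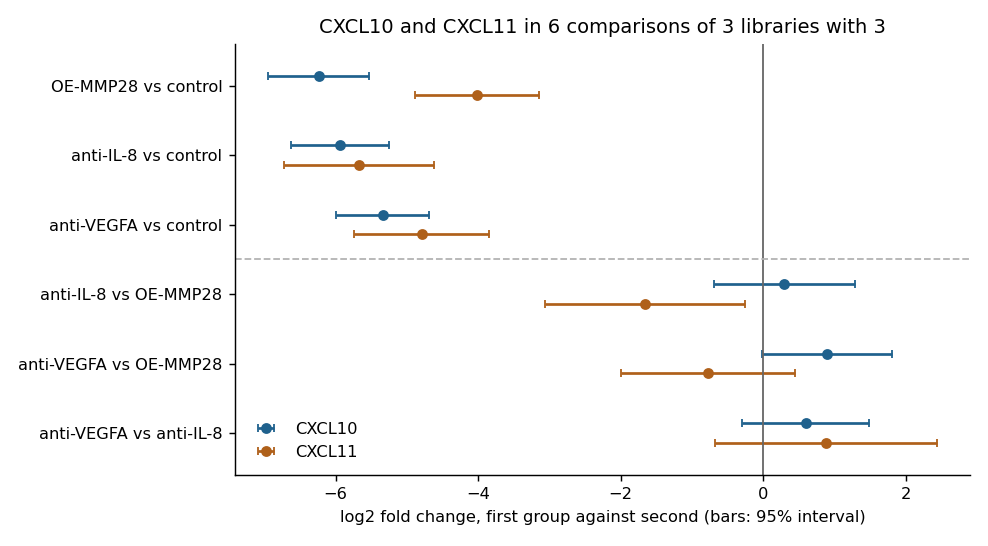
Log2 fold change with its 95% interval for CXCL10 and CXCL11 in 6 comparisons; the 3 above the dashed line contain the control group and are descriptions. CXCL10 lay at -6.24, -5.94 and -5.34 from control. Of the intervals without control only that of CXCL11 in anti-IL-8 against OE-MMP28 left out 0, and it was not called (edgeR adjusted p = 0.116).

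The ratio of CXCL10 to CXCL11 had its lowest values in OE-MMP28. In FPKM, it was 10.2, 6.86 and 6.73 in the control libraries and 1.93, 0.649 and 2.43 in OE-MMP28. It was 22.7, 8.65 and 2.70 with anti-IL-8 and 6.03, 3.41 and 9.73 with anti-VEGFA. The OE-MMP28 libraries were thus the lowest of the 12, a pattern noticed after the values were seen, which carries no test. As a share of the counts of both genes, CXCL10 was 54.3% in OE-MMP28 replicate 1 (95% Clopper-Pearson interval 39.0% to 69.1%, 46 counts). It was 28.6% in replicate 2 (8.39% to 58.1%, 14 counts) and 60.0% in replicate 3 (26.2% to 87.8%, 10 counts). The control shares, 80.6% to 86.3%, rested on 911 to 1365 counts. With anti-IL-8 the shares were 62.5% to 93.3%, on 15 to 19 counts, and with anti-VEGFA 67.7% to 85.7%, on 21 to 33. The interval of anti-IL-8 replicate 3, 35.4% to 84.8%, overlapped that of each OE-MMP28 library. These intervals cover counting error only and do not compare the groups.

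**Figure D3:**
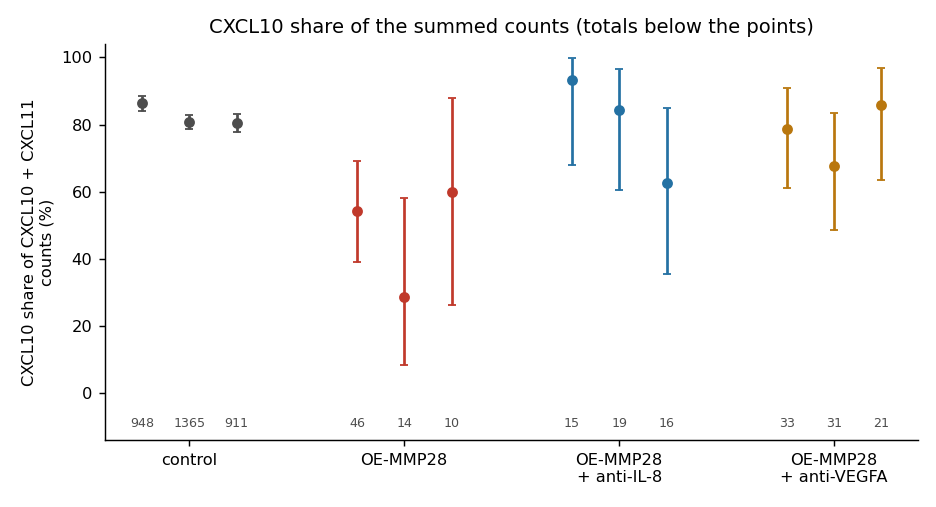
CXCL10 as a percentage of the summed CXCL10 and CXCL11 counts in each library, with 95% Clopper-Pearson intervals, which cover counting error only, and the summed count below each point. The control shares of 80.6% to 86.3% rest on 911 to 1365 counts, and those of the other groups on 10 to 46.

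Summed in FPKM, the 3 ligands reached 49.5 ± 10.6 in control (SD, n = 3). The sum was 0.928 ± 0.739 in OE-MMP28, 0.829 ± 0.0891 with anti-IL-8 and 1.28 ± 0.343 under anti-VEGFA. This rested on 3261 ligand counts in control and on 74, 52 and 85 in the other groups. CXCL10 supplied 86.2% to 90.8% of the sum in control and 34.9% to 70.9% in OE-MMP28.

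The signalling genes upstream of these chemokines were described with a list of 20 genes: interferons, their receptors, Janus kinases, STAT2, interferon regulatory factors, NF-kB subunits and feedback inhibitors. This list was chosen, as were the others below, with earlier results of these data known, which limits what the p-values against control can carry. Of 17 tested in OE-MMP28 against control, 6 fell and 0 rose, where 2.64% of all genes fell and 0.523% rose. The median log2 fold change of the list was -0.13, against 0.02 over all genes. No gene of the list was called between either antibody group and OE-MMP28 (quasi-likelihood test of edgeR, Benjamini-Hochberg adjustment), although 8 and 7 had an unadjusted p under 0.05. Over all the gene lists, 0 genes were called with either antibody against OE-MMP28, but without OE-MMP28 replicate 3 these were 25 with anti-IL-8 and 9 under anti-VEGFA, and DESeq2 called 14 and 1. Without anti-VEGFA replicate 2, 8 were called with anti-IL-8.

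STAT2, a transcription factor of the type I interferon complex, had 4770, 5583 and 4665 counts in control and 2354, 1731 and 1611 in OE-MMP28, without overlap. It fell by 1.41 on the log2 scale (SE 0.14, edgeR adjusted p = 3.6e-06), from 293 ± 25.3 to 110 ± 16.4 CPM, and was at 112 ± 6.27 CPM with anti-IL-8 and 129 ± 22.9 under anti-VEGFA. IRF9, the DNA-binding part of that complex, fell by 0.90 (SE 0.21, edgeR adjusted p = 0.018), a call lost without OE-MMP28 replicate 2 or without any 1 of the control libraries.

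Among the other regulators, IRF7, an amplifier of type I interferon transcription, fell by 1.65 on the log2 scale (SE 0.20, edgeR adjusted p = 2.2e-05). IRF1, an activator induced by interferon gamma, fell by 0.80 (SE 0.15, edgeR adjusted p = 0.0045). USP18, the deconjugase of ISG15 that dampens the type I receptor, fell by 2.89 on the log2 scale, the most of the list (SE 0.20, edgeR adjusted p = 1.7e-08). Its counts went from 1895, 2179 and 1577 in control to 361, 240 and 170. JAK2, a kinase of the interferon gamma receptor, fell by 0.60 (SE 0.16, edgeR adjusted p = 0.048), and was not called in 8 of the 12 fits that left out 1 library.

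The receptor chains IFNAR1, IFNAR2, IFNGR1 and IFNGR2 were not called, at log2 fold changes of 0.04, 0.01, 0.34 and 0.28. JAK1 and TYK2, the kinases beside JAK2, were at 0.24 and -0.13, and the NF-kB subunits NFKB1 and RELA at 0.10 and 0.03, none of them called. The interferon transcripts on the list, IFNB1, IFNG and IFNL1, were scarce, and other interferon genes were not examined. IFNB1, the main type I interferon of macrophages, had 13, 5 and 7 counts in control and 6, 1 and 0 in OE-MMP28. It had 1, 0 and 1 with anti-IL-8 and 0, 0 and 2 with anti-VEGFA, and it did not pass the filter. IFNG had 0 counts in every library, and IFNL1 at most 1.

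**Figure D4:**
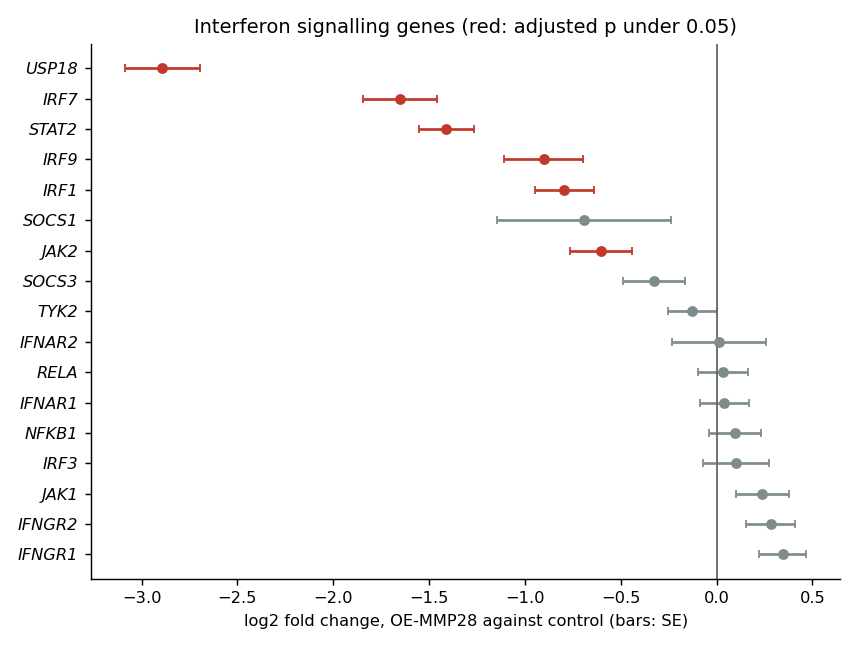
Log2 fold change of OE-MMP28 against control with its SE for the 17 interferon signalling genes tested, red where the adjusted p was under 0.05. USP18, IRF7, STAT2, IRF9, IRF1 and JAK2 lie below 0 and are called, while the receptor chains lie between 0.01 and 0.34 and are not.

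The other CXC chemokines changed less than CXCL10 and CXCL11, between -1.34 and 0.82 on the log2 scale. Of 14 listed, 9 were tested in OE-MMP28 against control, with a median log2 fold change of -0.10. Of these, 3 fell and 0 rose, where 2.64% of all genes fell and 0.523% rose. All 3 belong to the ELR-positive ligands of CXCR2, a receptor of neutrophils, of which 4 more were tested and not called: CXCL1 at -0.10, CXCL2 at -0.18, CXCL3 at -0.02 and CXCL8 at 0.29 on the log2 scale. CXCL6 fell by 1.13 on the log2 scale (SE 0.17, edgeR adjusted p = 3.4e-04), from 43.8 ± 6.41 to 20.1 ± 2.60 CPM. CXCL5 fell by 0.95 on the log2 scale (SE 0.18, edgeR adjusted p = 0.0032), from 160 ± 29.5 to 83.1 ± 8.55 CPM. PPBP, a platelet chemokine precursor, fell by 1.34 (SE 0.29, edgeR adjusted p = 0.011), a call lost without control replicate 1 or control replicate 3.

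Of 12 other chemokine receptors 6 were tested, and 2 fell, where 2.64% of all genes did. ACKR3, the scavenging receptor of CXCL11, had 672, 546 and 628 counts in control and 383, 255 and 328 in OE-MMP28, without overlap. Its log2 fold change was -0.94 (SE 0.21, edgeR adjusted p = 0.017), not called without control replicate 1, control replicate 3 or OE-MMP28 replicate 2. CCR1, a receptor of CC chemokines, was at -0.46 (SE 0.12, edgeR adjusted p = 0.049), a call lost in 10 of the 12 fits that left out 1 library. Enzymes that trim or modify chemokines were 6 of 8 tested, and 0 were called. The most abundant were MMP9 at 515 ± 61.4 CPM in control and 485 ± 154 in OE-MMP28, and ANPEP at 561 ± 49.3 and 459 ± 77.2 CPM.

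CXCR3 is carried by T and NK cells, whose markers were mostly absent or scarce. The CD3 chains CD3D, CD3E and CD3G had 0 counts in all libraries, where 3 counts equal 0.160 to 0.189 CPM, and 4 of 10 T and NK cell markers passed the filter. Their summed level was 53.7 to 54.8 CPM in control, 47.9 to 76.5 in OE-MMP28, 57.0 to 74.7 with anti-IL-8 and 45.0 to 58.9 with anti-VEGFA, most of it GNLY. PRF1, the pore-forming protein perforin, fell by 1.34 on the log2 scale (SE 0.29, edgeR adjusted p = 0.013) from 94, 91 and 61 counts in control to 41, 18 and 38, and lost the call without control replicate 1 or control replicate 2. The other 3 tested were not called. Among macrophage markers 1 of 11 rose and 0 fell, where 0.523% of all genes rose and 2.64% fell. CD14, a lipopolysaccharide co-receptor, was higher by 0.80 (SE 0.19, edgeR adjusted p = 0.027), and by 0.53 with no call without OE-MMP28 replicate 3. Leaving out any 1 control library or OE-MMP28 replicate 1 also ended the CD14 call. The part of these cell markers in the chemokine values was not tested.

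The neighbours of the chemokine cluster were not called in OE-MMP28 against control. Of 16 other protein-coding genes whose span reached within 500 kb of CXCL10, 11 were tested in OE-MMP28 against control and 0 were called by edgeR's test, with 1 higher and 1 lower at an unadjusted p under 0.05. Their log2 fold changes ran from -0.27 to 1.18 with a median of 0.06. In anti-IL-8 and anti-VEGFA against OE-MMP28 none of the 11 was called either, at medians of -0.30 and -0.26, with 5 and 4 at an unadjusted p under 0.05. Their log2 fold changes ran from -2.55 to 0.19 and from -0.39 to 0.08. The lowest was that of CDKL2 with anti-IL-8 (edgeR adjusted p = 0.0627), at 1 to 4 counts against 15 to 16 in OE-MMP28. Against control, 4 of the 11 fell with anti-IL-8, where 10.9% of all genes did, and 1 with anti-VEGFA, where 5.37% did. With anti-IL-8 they were G3BP2, SDAD1, NUP54 and SCARB2, at -0.46, -0.43, -0.60 and -0.52 on the log2 scale, and with anti-VEGFA it was SCARB2, at -0.52, all named after their values were seen.

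Over the 12 libraries, the genes most like CXCL10 by Pearson's r of log2 CPM, among 13790 genes with a mean of at least 1 CPM, were OAS1 (r = 0.993), MX1 (0.991), USP18 (0.989), OASL (0.988) and IFITM1 (0.988). These r values describe the separation of the control group from the rest and carry no p. MX1 was at 382 ± 63.9 CPM in control and 24.6 ± 7.41 CPM in OE-MMP28, and OAS1 at 215 ± 34.7 and 31.3 ± 6.86 CPM. OASL went from 51.0 ± 12.3 to 2.55 ± 0.592 CPM, and IFITM1 from 75.0 ± 15.2 to 3.66 ± 0.590 CPM. CXCL11 ranked 97th at r = 0.92. With each library centred on its group mean, the 5 most alike were CCDC9B (0.936), CHPT1 (0.925), AP006623.1 (0.913), FAM57A (0.871) and AC145098.1 (0.870), and CXCL11 ranked 807th at r = 0.48. No gene was among the 5 highest by both measures. The centred r values carry no p either, as they are the highest picked from 13790 genes. Outside control they rest on 4 to 26 CXCL10 counts per library, so no likeness within groups is read from them.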

How the data were processed

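RNA of cocultured THP-1-derived TAMs was sequenced as 12 libraries, and each library was assigned to its group from its label. The deposited counts are whole reads per gene made by the authors, and the submitters' processing notes name HISAT2 2.0.5 and featureCounts 1.5.0-p3. Whether counting used strand is not given in the sources used here. FPKM values, also deposited by the authors, equal the counts per gene length times 1 factor per library. The authors' group means, log2 fold changes and p-values were not used.

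Counts were analysed in R 4.3.3 with edgeR 4.0.16: filterByExpr over the 4 groups kept 16046 genes, libraries were scaled by TMM, and quasi-likelihood tests with 1 coefficient per group had Benjamini-Hochberg adjustment in every comparison, at 0.05. The common dispersion was 0.0231. Genes outside the filter had an exact two-sided permutation test of CPM, or counts with exact 95% intervals. The script was tested on simulated data. The members and gene lists were chosen with earlier results of these data known, and 1 gene of the interferon signalling list is not reported here. Named genes were the members, called interferon signalling genes, up to 4 called genes of each other list (otherwise its 2 most abundant), the 5 most like CXCL10 by each measure, and neighbours called or overlapping a member. The uncalled chemokines, receptors, kinases, NF-kB subunits and interferons were added after their values were seen. So were CDKL2 and the neighbours called only against control with an antibody. Alternatives were library totals, no filter, a minimum of 10 counts per library, 2 groups only, a replicate block, limma 3.58.1 voom, FPKM with pseudocounts of 1 and 0.1, DESeq2 1.42.0, an unadjusted threshold, and each library left out. Figures used Python 3.11.15, pandas 2.3.3 and matplotlib 3.10.9.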

Additional observations from a re-analysis of the deposited data

How the results depend on the processing

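On the log2(FPKM + 1) scale, which understates changes of low genes, CXCL10 was at -4.87 in OE-MMP28, -4.69 with anti-IL-8 and -4.41 under anti-VEGFA against control, and CXCL11 at -2.30, -2.56 and -2.44. CXCL11 in anti-IL-8 against OE-MMP28 passed the threshold without a filter, at -1.67 (edgeR adjusted p = 0.0330), and at the unadjusted threshold, at -1.66; DESeq2 gave it no adjusted p. Between OE-MMP28 and control, 13 list genes were called, and 21 at the unadjusted threshold. Between anti-IL-8 and OE-MMP28 the count went from 0 to 13 without a filter, 14 with DESeq2, 8 with the replicate block and 26 unadjusted, and over all genes from 0 to 1438, 2259, 795 and 4700. Between anti-VEGFA and OE-MMP28 it went from 0 to 1 without a filter, 1 with DESeq2 and 17 unadjusted, and over all genes from 55 to 400, 429 and 3019, and to 1 with 2 groups only. Between the antibodies, the 32 genes called became 277 without a filter, 57 with the count minimum, 17 with 2 groups only, 53 on the log2(FPKM + 1) scale, 252 with DESeq2 and 2409 unadjusted, and the 507 between OE-MMP28 and control became 2332 unadjusted. JAK2 was not called with library totals, 2 groups only or FPKM, CCR1 with library totals, no filter, 2 groups only or a pseudocount of 0.1, and CD14 and ACKR3 with FPKM. The cause was not tested.

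Leaving out 1 library at a time, CXCL10 ranged from -7.39 to -5.84 in OE-MMP28, -6.05 to -5.76 with anti-IL-8 and -5.50 to -5.15 with anti-VEGFA against control, and CXCL11 from -4.69 to -3.65, -6.39 to -5.23 and -5.25 to -4.38. Against OE-MMP28, CXCL10 ranged from -0.10 (without OE-MMP28 replicate 2) to 1.45 with anti-IL-8 and from 0.49 to 2.04 with anti-VEGFA, and CXCL11 from -2.38 to -0.98 and from -1.23 to -0.10. Between the antibodies the ranges were 0.44 to 0.77 for CXCL10 and 0.40 to 1.61 for CXCL11. The log2 ratio of mean CXCR3 CPM in anti-VEGFA against OE-MMP28 ranged from -0.71 to 0.33, turning positive without OE-MMP28 replicate 1 (0.33) or anti-VEGFA replicate 2 (0.03). List genes called ranged from 6 (without control replicate 1) to 14 in OE-MMP28 against control, where control replicates 2 and 3 left 8 and 7. They ranged from 0 to 25 in anti-IL-8 against OE-MMP28 and from 0 to 9 in anti-VEGFA against OE-MMP28, both highest without OE-MMP28 replicate 3, and anti-IL-8 also had 8 without anti-VEGFA replicate 2. Over all genes, 295 to 641 were called in OE-MMP28 against control, 0 to 4203 in anti-IL-8 and 8 to 1498 in anti-VEGFA against OE-MMP28, and 3 to 112 between the antibodies.

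Libraries with the same replicate number did not deviate together (correlations -0.160 to 0.237, with no comparison above 0.1 in every pair), so the replicate block has no basis in a pairing. With the block, CXCL10 in anti-IL-8 against OE-MMP28 was 0.32 and CXCL11 -1.66, neither called. At least 10 counts in every library left out both genes. Depth limits CXCL9 and CXCR3, and every ligand outside the control group.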
